A study of Mus musculus with 24 samples.

Results

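Transcripts of 9 genes of the hemidesmosome and of laminin-332, the extracellular protein it binds, were followed in 24 libraries of mouse salivary gland organoids. The genes were taken from the count tables by symbol, by function rather than by a threshold on their values, but with earlier results of these data known: the integrin genes Itga6, Itgb4 and Itga3, the laminin chain genes Lama3 and Lamb3, the transmembrane collagen gene Col17a1, the cytoskeletal linker genes Dst and Plec, and the tetraspanin gene Cd151. They are 9 of the 47643 genes in the tables, and all 9 were among the 10563 genes that passed the filter on low counts. Each gene had at least 85 reads in every library. The organoids are Matrigel cultures of salivary gland stem and progenitor cells of C57BL/6 mice, kept in medium with EGF, FGF2, insulin, dexamethasone, N2, Glutamax and the ROCK inhibitor Y-27632. Cells came from glands 14 or 90 days after irradiation (IR) or sham treatment, and organoids of passage 1 or passage 2 were sequenced. This gave 8 groups of 3 libraries: sham and IR at day 14 passage 1, at day 14 passage 2, at day 90 passage 1 and at day 90 passage 2. A day with its passage is called a stratum below. All groups share the strain, the matrix and the medium, so every group grew in contact with Matrigel, a basement membrane extract that itself contains laminin. No source used here gives the radiation dose or says whether the 3 libraries of a group came from separate animals or cultures, so that p-values measure the spread between libraries, which may be technical. Nor is it stated whether passage 2 organoids were grown from the cultures of the passage 1 libraries. The strata of a day may therefore not be independent, while the main tests and the counts over strata treat them as separate.

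Hemidesmosomes anchor basal epithelial cells to the basement membrane. Integrin alpha6beta4, the product of Itga6 and Itgb4, binds laminin-332 outside the cell, collagen XVII spans the membrane beside it, and the plakins plectin and dystonin (the products of Plec and Dst) tie both to keratin filaments inside. Laminin-332, which contains the chains of Lama3 and Lamb3, is also bound by integrin alpha3beta1, with the tetraspanin Cd151 as a partner of both integrins. In salivary glands these genes are known from basal duct and myoepithelial cells, which lie on the basement membrane, and Itga6 is widely used as a surface marker of basal progenitors.

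Promoter sequences are shown for 3 members that stand for the patterns described below: Col17a1 and Dst, which were lower in IR organoids and varied together, and Lamb3, the member that varied least. They are RefSeq sequences of the build GRCm38.p6 from 250 bases before to 50 bases after a transcript start, written 5′ to 3′ on the strand of the gene. The table held entries for 5 of the 9 members, Itga3, Lamb3, Col17a1, Dst and Cd151. Capitals mark matches on either strand to 3 motifs, none of which overlap one another in the windows shown. The AP-1 motif was searched as TGANTCA and was held by 7.81% of 32851 promoters of the same length. The GC box was searched as GGGCGG and was held by 35.7%. The TATA box was searched as TATAAA and was held by 13.6%. The Col17a1 window is chr19:47691993-47692292 on the minus strand. The 2 Dst windows are chr1:34011345-34011644 and chr1:34160010-34160309 on the plus strand. Lamb3 had 2 entries, of which the first is shown, chr1:193301744-193302043 on the plus strand.
Col17a1: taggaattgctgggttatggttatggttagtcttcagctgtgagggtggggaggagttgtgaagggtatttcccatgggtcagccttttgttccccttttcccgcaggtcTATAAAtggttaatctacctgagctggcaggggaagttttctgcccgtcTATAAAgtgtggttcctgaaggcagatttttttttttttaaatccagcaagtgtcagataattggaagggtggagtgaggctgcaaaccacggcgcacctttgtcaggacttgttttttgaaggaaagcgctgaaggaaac
Dst, first start: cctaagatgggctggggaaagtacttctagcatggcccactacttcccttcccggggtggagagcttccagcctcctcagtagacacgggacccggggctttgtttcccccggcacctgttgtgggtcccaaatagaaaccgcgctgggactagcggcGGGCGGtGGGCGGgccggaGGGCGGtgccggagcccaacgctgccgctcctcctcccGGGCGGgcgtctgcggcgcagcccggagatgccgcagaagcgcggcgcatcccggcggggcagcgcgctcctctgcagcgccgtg
Dst, second start: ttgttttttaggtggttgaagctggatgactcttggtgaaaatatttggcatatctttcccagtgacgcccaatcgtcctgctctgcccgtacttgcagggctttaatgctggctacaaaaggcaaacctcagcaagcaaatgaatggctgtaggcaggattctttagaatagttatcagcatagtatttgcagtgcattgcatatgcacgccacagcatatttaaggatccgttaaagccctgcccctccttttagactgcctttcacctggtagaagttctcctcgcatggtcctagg
Lamb3: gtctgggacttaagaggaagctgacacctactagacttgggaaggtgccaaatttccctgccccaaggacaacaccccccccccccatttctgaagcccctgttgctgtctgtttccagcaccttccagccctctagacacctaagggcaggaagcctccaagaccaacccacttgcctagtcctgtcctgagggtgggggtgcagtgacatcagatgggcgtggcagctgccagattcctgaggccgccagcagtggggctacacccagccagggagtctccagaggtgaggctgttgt
The Col17a1 window held 2 TATAAA matches, 140 and 91 bases before the start, and had a GC content of 46.3%. The first Dst window held 4 GGGCGG matches at a GC content of 70.3%, while the second held no match to the 3 motifs at 46.0%. The Lamb3 window held none of the 3 at 59.3%, and neither did the second Lamb3 window, which is not shown. A match describes letters in a window and is not evidence of binding.

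The libraries read the 3′ ends of polyadenylated RNA (QuantSeq) and held 1151608 to 3189466 reads on genes. Values are given as CPM, the reads of a gene scaled to the normalised library size. Basal and luminal duct keratins were present in all 24 libraries. The 6 mesenchymal markers summed to 0 to 3.85 CPM and the 4 endothelial markers to 0 to 2.05 CPM, and Col3a1 had no read in any library. The immune markers summed to 0.406 to 49.0 CPM, mostly Lyz2. The Schwann list summed to 37.5 to 84.1 CPM, nearly all of it Mbp. The share of Gm42418, a gene on a ribosomal RNA repeat, was 11.8% to 29.0% per library. Sham replicate 1 and IR replicate 3 of day 14 passage 2 stood apart from their groups in the interferon genes described below. Some values, among them those of Itgb4 and Itga3, are given without these libraries too. The ratios of partner genes are not given without both.

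Irradiation of the gland was followed by lower Itga6, Col17a1 and Dst in the organoids. Averaged over the 4 strata, Itga6 fell by 32.2%, Col17a1 fell by 25.8% and Dst fell by 34.1%. The other members, Itgb4, Plec, Lama3, Lamb3, Itga3 and Cd151, did not pass the test. Of the 9 members 3 were thus lower and 0 higher in the mean irradiation effect, at an adjusted p under 0.05 in edgeR's quasi-likelihood test. Of all 10563 genes tested, 4.91% were lower and 6.09% higher (519 and 643 genes, 11.0% in either direction). With libraries scaled to total gene counts instead, this split was 641 lower and 424 higher, and the same 3 members were called. The median log2 fold change was −0.12 over the members and 0.00 over all genes. In these bulk libraries, fewer cells with the junction and less of the RNA per cell cannot be told apart.

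**Figure D1:**
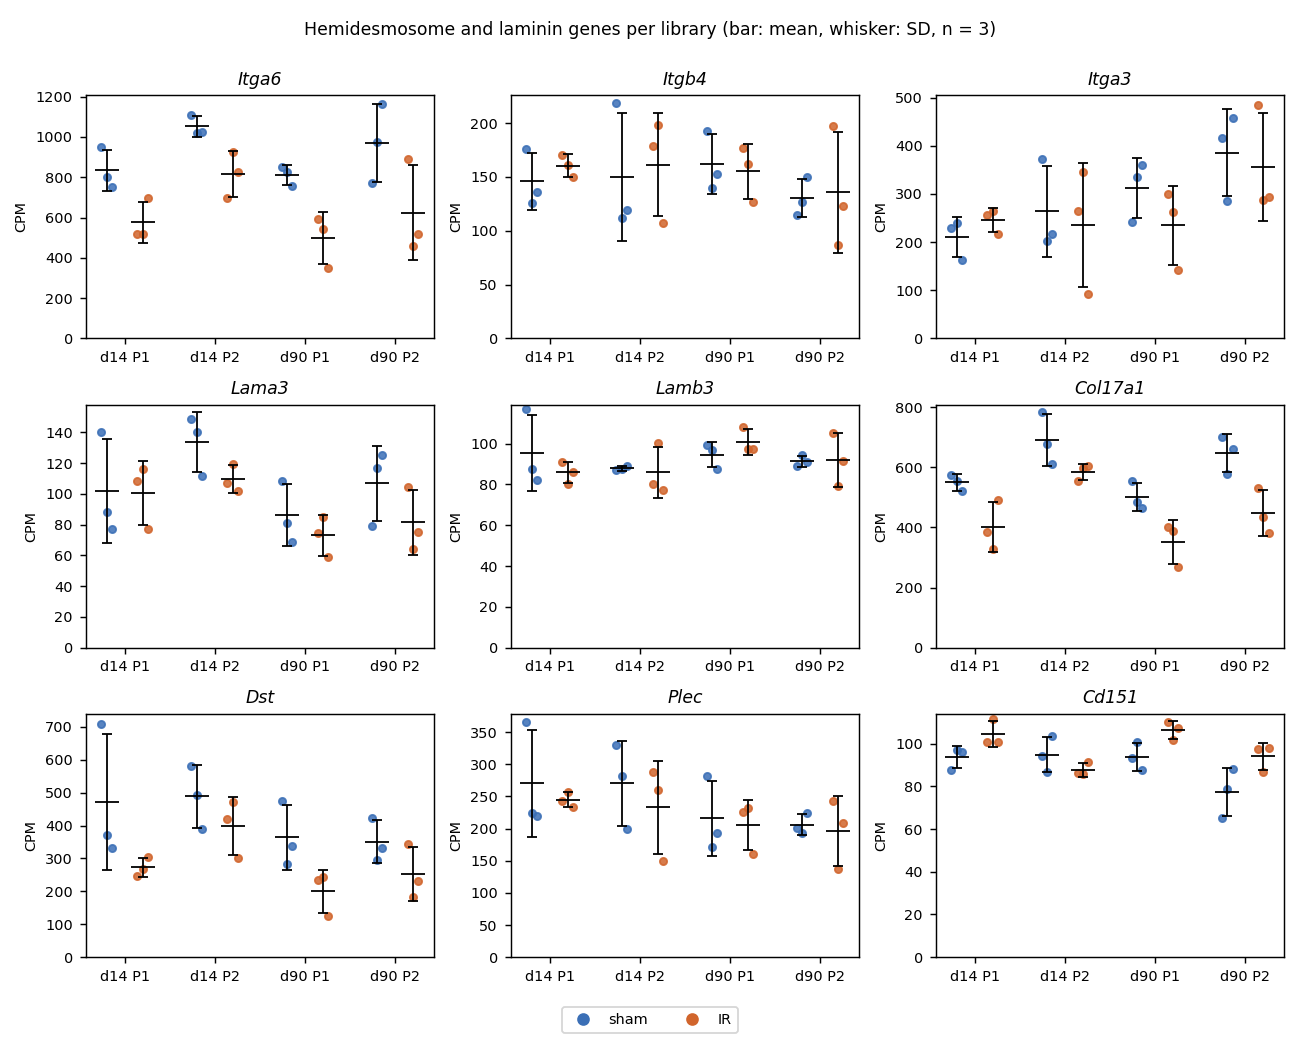
Level of each member in CPM (vertical axis, from 0) in every library, by stratum (horizontal axis; d14 and d90 are days, P1 and P2 passages), with sham in blue and IR in orange; bars are means and whiskers SD of 3 libraries. Itga6, Col17a1 and Dst sit lower in IR than in sham in all 4 strata, while Lamb3 stays between 77.1 and 117 CPM throughout.

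Itga6 (ENSMUSG00000027111, chromosome 2) encodes the alpha6 integrin subunit, which with beta4 forms the laminin receptor of the hemidesmosome. Its level at day 14 passage 1 was 950.0, 799.6 and 752 CPM in the sham libraries and 516, 519 and 695 CPM in the IR libraries. In passage 2 of day 14 it was 1111, 1021 and 1024 CPM in sham against 698, 924 and 826 CPM in IR. In both of these strata, every IR library lay below every sham library. At day 90 passage 1 the sham libraries held 850.2, 824 and 758 CPM and the IR libraries 594, 545 and 351 CPM, again with no overlap. At day 90 passage 2 the sham libraries held 774, 974 and 1164 CPM and the IR libraries 893, 459 and 519.9 CPM. There IR replicate 1 lay within the sham range. In all, 11 of 12 IR libraries lay below every sham library of their stratum and 12 of 12 below its sham mean. Counts of this kind over 12 libraries were not made for all genes, here or for the genes below. Such counts take the passages of a day as separate, although they may share a source. Averaged over the strata, the irradiation effect on Itga6 was −0.56 on the log2 scale (SE 0.11, adjusted p = 0.00271).

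Itgb4 (ENSMUSG00000020758, chromosome 11) encodes beta4, the partner of alpha6, whose long cytoplasmic tail binds plectin. Its sham and IR means differed by less than the larger SD in every stratum. They were 146 ± 26.3 and 160.3 ± 10.6 CPM at day 14 passage 1, and 150.1 ± 59.6 and 161 ± 47.9 CPM at day 14 passage 2 (SD, n = 3). They were 162 ± 27.8 and 155 ± 25.8 CPM at day 90 passage 1, and 131 ± 18.0 and 136 ± 56.5 CPM at day 90 passage 2. The sham and IR libraries of Itgb4 overlapped in each stratum, with 8 of 12 IR libraries above the sham mean. Its mean irradiation effect was 0.06 (SE 0.14, adjusted p = 0.826), with a 95% interval from −0.21 to 0.33. Without sham replicate 1 (219 CPM) and IR replicate 3 (107 CPM) of day 14 passage 2, the libraries left there held 112 and 119 CPM in sham against 178 and 198 CPM in IR. The Itgb4 effect in that stratum was then 0.70 (adjusted p = 0.244) and its mean effect 0.21 (adjusted p = 0.260), neither of them called.

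Itga3 (ENSMUSG00000001507, chromosome 11), the alpha3 subunit of the other laminin-332 receptor, spread more between libraries of 1 group than the other members. Its values at day 14 passage 2 stood at 372, 202 and 217 CPM in sham and at 266, 346 and 93.1 CPM in IR. The lowest of its 24 values, 93.1 CPM, was in IR replicate 3 of that stratum, and the highest, 485 CPM, in IR replicate 1 at day 90 passage 2. Its mean irradiation effect was −0.12 (SE 0.18, adjusted p = 0.713), and without the 2 libraries of day 14 passage 2 that stood apart it was 0.06 (adjusted p = 0.834). Cd151 (ENSMUSG00000025510, chromosome 7), the tetraspanin that associates with both integrins, was 1 of the steadiest members, at 65.3 to 111 CPM. In passage 1 its IR libraries lay above all sham libraries at both days, at 101, 111 and 101 against 87.8, 97.2 and 96.0 CPM at day 14, and at 110.3, 102 and 107 against 93.1, 101 and 87.7 CPM at day 90. For Cd151 the mean effect of irradiation was 0.13 (SE 0.063, adjusted p = 0.204) and was not called.

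Col17a1 (ENSMUSG00000025064, chromosome 19) encodes collagen XVII, the transmembrane collagen of the hemidesmosome. The sham libraries of day 14 passage 1 held 575, 553 and 520.0 CPM and the IR libraries 385, 329 and 491 CPM. Those of day 14 passage 2 held 782, 677 and 612 CPM against 556, 596 and 605 CPM in IR, so that the gap there was narrow. Values at day 90 passage 1 were 555, 484 and 466 CPM for sham and 400.1, 387 and 267 CPM for IR. Those at day 90 passage 2 were 702, 578 and 659.9 CPM for sham and 532, 434 and 381 CPM for IR. All 12 of 12 IR libraries lay below every sham library of their stratum, which held for no other member. The passages of a day, which may share a source, are counted separately in this number. The mean irradiation effect on Col17a1 was −0.43 (SE 0.085, adjusted p = 0.00258).

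Dst (ENSMUSG00000026131, chromosome 1) encodes dystonin, whose epithelial form is the plakin that anchors keratins at the hemidesmosome. Its level at day 14 passage 1 was 709.6, 371 and 333 CPM for sham and 246, 268 and 304 CPM for IR. Sham libraries (583, 492 and 391 CPM) and IR libraries (421, 472 and 302 CPM) overlapped at day 14 passage 2. In passage 1 at both days the IR libraries lay below all sham libraries, with 473, 282 and 337 CPM in sham and 234, 243 and 125 CPM in IR at day 90. At day 90 passage 2 it was 424, 296 and 332 CPM in sham and 343, 183 and 232 CPM in IR, again with overlap. Of 12 IR libraries 9 lay below every sham library of their stratum and 12 below its sham mean. The mean irradiation effect on Dst was −0.60 (SE 0.15, adjusted p = 0.0114), and without the stratum of day 90 passage 1 it no longer passed (adjusted p = 0.0794). Dst is a large gene with neural, muscle and epithelial forms. A reference annotation gives it 14 protein-coding transcripts with 9 separate 3′ ends, over which the counts are summed, so the epithelial form is not resolved.

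Plec (ENSMUSG00000022565, chromosome 15), which encodes the plakin plectin, had means of 196 to 271 CPM over the 8 groups. Its sham and IR libraries overlapped in every stratum. For example, at day 90 passage 1 it was at 282, 172 and 194 CPM in sham and 225, 231 and 161 CPM in IR. For Plec the mean effect of irradiation was −0.12 (SE 0.13, adjusted p = 0.592). In the reference annotation Plec overlaps Parp10 on the same strand and Lamb3 overlaps Hsd11b1 and G0s2 on the opposite strand, and the sources used here do not say how reads on shared bases were assigned.

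Lama3 and Lamb3, which encode chains of the ligand laminin-332, did not pass in either direction. Lama3 (ENSMUSG00000024421, chromosome 18), the alpha3 chain that carries the integrin-binding end, ranged from 59.1 to 149 CPM, with 10 of 12 IR libraries below their sham mean. Its mean irradiation effect was −0.23 (SE 0.12, adjusted p = 0.235). Lamb3 (ENSMUSG00000026639, chromosome 1), the beta3 chain, had 95.4 ± 18.7 CPM in sham libraries and 85.8 ± 5.30 CPM in IR libraries at day 14 passage 1, and at 91.4 ± 2.67 and 91.9 ± 13.2 CPM at day 90 passage 2 (SD, n = 3). For Lamb3 the mean effect was −0.02 (SE 0.072, adjusted p = 0.904), with a 95% interval from −0.16 to 0.12.

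Within single strata the same 3 genes had negative log2 fold changes throughout, with no call from 3 libraries against 3. edgeR called 0 of 9 members in each of the 4 strata, against 0.341% of all genes at day 14 passage 1, 0.0189% at day 14 passage 2, 0.0473% at day 90 passage 1 and 4.92% at day 90 passage 2. At an unadjusted p under 0.05 there were 3, 0, 3 and 3 members in these strata, against 11.0%, 6.73%, 12.7% and 18.3% of all genes. DESeq2 called 0, 0, 0 and 1, the last being Col17a1 at day 90 passage 2 (adjusted p = 0.0224, against 0.0775 in edgeR). For Itga6 the log2 fold changes were −0.53 (SE 0.22) and −0.37 (SE 0.22) at day 14, passages 1 and 2, and −0.71 (SE 0.22) and −0.64 (SE 0.22) at day 90. Those of Col17a1 were −0.45, −0.24, −0.51 and −0.53 in the same order (SE 0.17 each). Those of Dst were −0.79, −0.30, −0.85 and −0.47 (SE 0.29 to 0.30). All 3 genes were lower in all 4 strata, as were 14.6% of all genes tested. Without IR replicate 1 at day 90 passage 2, Itga6 (−0.99, adjusted p = 0.00460) and Col17a1 (−0.67, adjusted p = 0.0223) were called in that stratum. Members whose IR and sham libraries did not overlap, with IR lower, numbered 3, 2, 3 and 1 in the 4 strata, against 8.40%, 5.49%, 10.3% and 9.64% of all genes. With IR higher they numbered 1, 0, 1 and 0 (Cd151), against 8.84%, 6.06%, 9.21% and 10.9%.

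**Figure D2:**
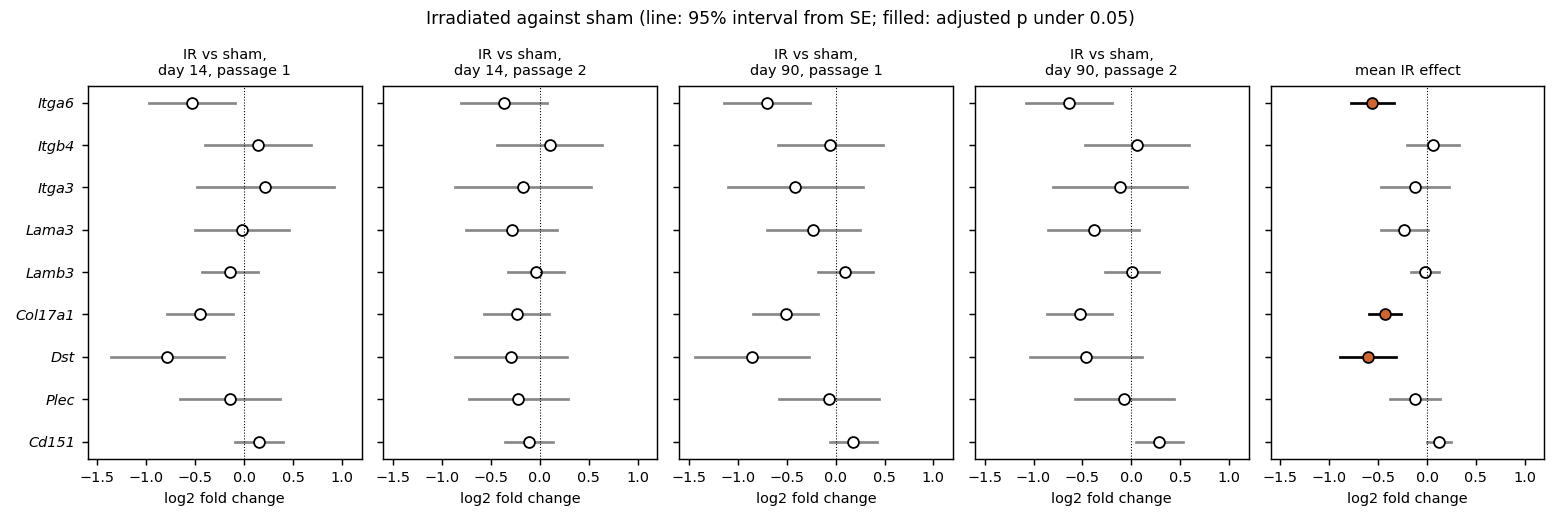
Log2 fold change of IR against sham (horizontal axis) for each member (vertical axis) in the 4 strata and as their mean; points are estimates, lines 1.96 SE to each side, and filled points have an adjusted p under 0.05. The filled points are Itga6, Col17a1 and Dst in the mean, and no member is filled in a single stratum.

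Whether the irradiation effect differed with day or passage was tested by interactions, and none of the 9 members passed. At day 14 and at day 90 the interaction of irradiation with passage was 0.16 (SE 0.32) and 0.07 (SE 0.32) for Itga6, 0.21 (SE 0.24) and −0.01 (SE 0.24) for Col17a1, and 0.49 (SE 0.41) and 0.39 (SE 0.41) for Dst. The interaction with day was −0.17 (SE 0.32) in passage 1 and −0.27 (SE 0.31) in passage 2 for Itga6. With these standard errors differences of the size of the irradiation effect itself could not be resolved. Both edgeR and DESeq2 called 0 members in the 4 interactions, where edgeR called 0.0189% and 0.00947% of all genes with day and 0.00% with passage, and 1 member, Cd151 with day in passage 2 (0.40, SE 0.18), had an unadjusted p under 0.05. Of all genes 8.11% and 5.14% had one in the interactions with day (passages 1 and 2), and 6.90% and 3.85% in those with passage (days 14 and 90).

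The ratio of partner genes within a library does not depend on how libraries are scaled, and 5 such ratios are given. The pairs were chosen after the values of single genes had been seen, some of them placing a gene called lower over one that was not called, so the ratios are a description with no test. Counts of 3′ reads give no protein stoichiometry, so only the change of each ratio is read. The ratio of Itga6 to Itgb4, the 2 subunits of 1 integrin, was 5.41, 6.36 and 5.53 in sham and 3.03, 3.23 and 4.65 in IR at day 14 passage 1. The values at day 14 passage 2 were 5.08, 9.10 and 8.58 in sham and 3.92, 4.66 and 7.70 in IR, with sham replicate 1 near the IR libraries and IR replicate 3 near the other sham libraries. At day 90 it was 4.41, 5.91 and 4.95 against 3.36, 3.37 and 2.77 in passage 1, and 6.73, 7.70 and 7.75 against 4.52, 5.31 and 4.22 in passage 2. IR and sham libraries did not overlap in 3 of the 4 strata. Over the strata the log2 ratio was 2.66 in sham and 2.02 in IR, a difference of −0.63 (within-group SD 0.30). The difference in Itga6 to Itgb4 was −0.69, −0.50, −0.68 and −0.66 in the strata of day 14 passage 1, day 14 passage 2, day 90 passage 1 and day 90 passage 2.

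The ratio of Dst to Plec, the 2 plakins, differed by −0.47 on the log2 scale (within-group SD 0.20). At day 90 passage 1 it was 1.68, 1.64 and 1.74 in sham and 1.04, 1.05 and 0.779 in IR, while at day 14 passage 2 sham libraries (1.76, 1.75 and 1.96) and IR libraries (1.46, 1.81 and 2.01) overlapped. Its difference was −0.61, −0.06, −0.83 and −0.39 in the 4 strata in the same order. The ratio of Col17a1 to Itgb4, the 2 transmembrane partners, differed by −0.49 (within-group SD 0.34). The ratio of the laminin-332 chains Lama3 and Lamb3 differed by −0.20 (within-group SD 0.25), less than that SD. Itga3 to Itgb1, the subunits of the other laminin-332 receptor, differed by −0.19 (within-group SD 0.39), also less. Of 12 IR libraries 11 lay below the sham mean of their stratum for Itga6 to Itgb4 and for Dst to Plec, 10 for Col17a1 to Itgb4 and for Lama3 to Lamb3, and 7 for Itga3 to Itgb1.

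**Figure D3:**
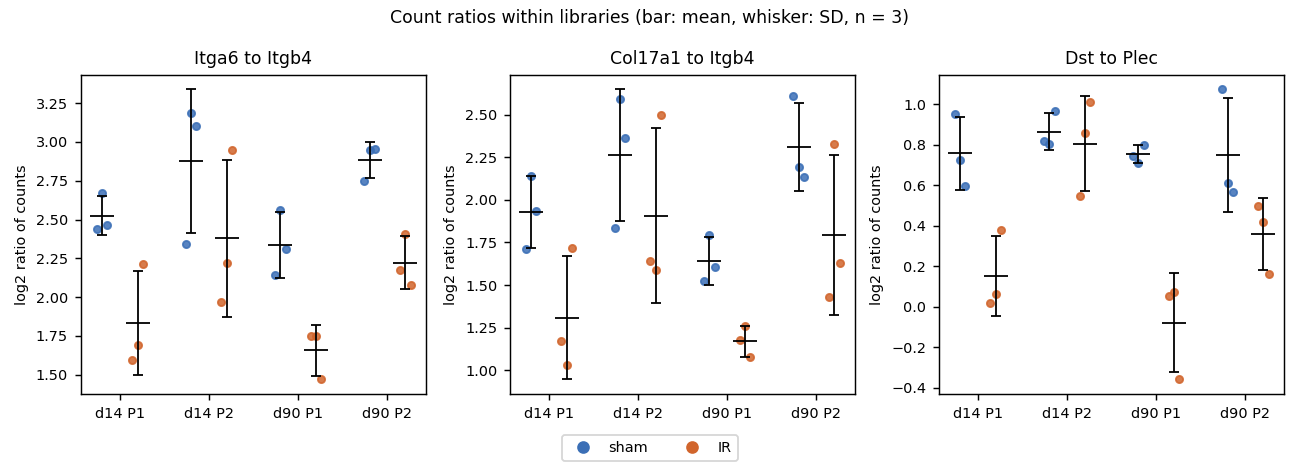
Log2 ratio of the counts of 2 partner genes in the same library (vertical axis) by stratum (horizontal axis), sham in blue and IR in orange, with bars for means and whiskers for SD of 3 libraries. In all 3 panels the IR mean lies below the sham mean in every stratum, with the narrowest gap for Dst to Plec at day 14 passage 2.

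Passage moved Col17a1 the other way. Averaged over day and treatment, a comparison added after the data were seen, Col17a1 was 31.7% higher in passage 2 than in passage 1 (log2 fold change 0.40, SE 0.085, adjusted p = 0.00365). It was at 549.6 ± 27.9 CPM in passage 1 and 690.4 ± 85.7 CPM in passage 2 of day 14 sham organoids, and at 402 ± 82.6 and 586 ± 26.4 CPM in IR (SD, n = 3). At day 90 the means were 502 ± 46.8 and 646 ± 63.2 CPM in sham, and 352 ± 73.3 and 449 ± 76.8 CPM in IR. Itga6 was higher by 0.36 (SE 0.11, adjusted p = 0.0411), which is close to the threshold. Leaving out single libraries, Itga6 kept this call in 8 of 24 fits, those without replicate 1 of day 14 passage 1 sham, replicate 3 of day 14 passage 1 IR, replicate 1 of day 14 passage 2 IR, replicate 1 or 2 of day 90 passage 1 IR, replicate 1 of day 90 passage 2 sham, or replicate 2 or 3 of day 90 passage 2 IR. In the other 16 fits its adjusted p was up to 0.0816. Without the 2 libraries of day 14 passage 2 that stood apart, and with the Gm42418 share or the interferon level as a covariate, it was not called either (adjusted p up to 0.135). Without the filter on low counts Itga3 was called higher as well (0.31, adjusted p = 0.0227). In the main setting 2 members were called higher and 0 lower, against 5.24% of all genes higher and 6.43% lower (11.7% in either direction). Cd151 had −0.17 (SE 0.063, adjusted p = 0.0798), and the other 6 members had adjusted p from 0.190 to 0.850.

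In single passage comparisons edgeR called 0 members in sham at day 14, sham at day 90, IR at day 14 and IR at day 90, where 1.18%, 1.36%, 1.38% and 0.00% of all genes were called. At an unadjusted p under 0.05 there were 0, 2, 2 and 0 members, against 11.4%, 14.0%, 14.1% and 10.1% of all genes. Passage 2 libraries lay above all passage 1 libraries for 2 (Itga6, Col17a1), 1 (Col17a1), 2 (Itga6, Col17a1) and 0 members, against 8.30%, 8.99%, 7.86% and 7.91%. They lay below all passage 1 libraries for 0, 0, 1 and 1 members, Cd151 both times. The share of all genes in that direction is not given here. DESeq2 called Col17a1 in IR at day 14 (log2 fold change 0.54, adjusted p = 0.0479), and 0 members in the other 3. In edgeR the same comparison gave a call for Col17a1 without IR replicate 3 of day 14 passage 1 (0.71, adjusted p = 0.0413). The irradiation and passage effects share all 24 libraries, and are given here side by side: −0.43 and 0.40 for Col17a1, −0.56 and 0.36 for Itga6, −0.60 and 0.22 for Dst, −0.23 and 0.25 for Lama3.

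Day brought no call among the members. In the mean of the 4 day effects, also added after the data were seen, edgeR called 0 of 9 members against 4.81% of all genes, with 5 members at an unadjusted p under 0.05, against 20.6%. Dst was nearest to the threshold at −0.49 in day 90 relative to day 14 (SE 0.15, adjusted p = 0.0573), and DESeq2 called it, as 1 of 9. Lama3 had −0.36 (SE 0.12, adjusted p = 0.0866) and Itga3 0.42 (SE 0.18, adjusted p = 0.180). Scaling by total gene counts moved the median of all genes by 0.14 in this comparison and called Itga3 and Lamb3, but not Dst or Lama3. In the 4 single day comparisons edgeR and DESeq2 called 0 members each, against 0.00%, 0.426%, 0.170% and 0.435% of all genes in edgeR for sham passage 1, sham passage 2, IR passage 1 and IR passage 2. At an unadjusted p under 0.05 they held 0, 1, 0 and 2 members, against 9.70%, 13.7%, 6.82% and 13.5% of all genes.

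Ordered by group mean, Itga6 ran from 1052 ± 51.3 CPM in day 14 passage 2 sham, through 971 ± 195 in day 90 passage 2 sham, 834 ± 103 in day 14 passage 1 sham, 816 ± 113 in day 14 passage 2 IR, 811 ± 47.4 in day 90 passage 1 sham, 624 ± 235 in day 90 passage 2 IR and 577 ± 102 in day 14 passage 1 IR, to 497 ± 129 in day 90 passage 1 IR (SD, n = 3). No 2 neighbours in this order were farther apart than the larger of their SDs. Both IR groups of passage 1 were lowest for Itga6 and for Col17a1, and day 90 passage 1 IR was lowest for Dst as well. For Dst the order ran from 489 ± 95.8 CPM in day 14 passage 2 sham to 201 ± 65.5 CPM in day 90 passage 1 IR, and 1 step, from 351 ± 65.7 CPM in day 90 passage 2 sham to 273 ± 29.3 CPM in day 14 passage 1 IR, was wider than the larger SD. For Col17a1, which ran from 690.4 ± 85.7 to 352 ± 73.3 CPM, 2 steps were wider, those between day 14 passage 2 IR, day 14 passage 1 sham and day 90 passage 1 sham.

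The members differed widely in how much they varied. Among the 3080 genes with a mean of at least 50 CPM, the SD of log2 CPM over the 24 libraries put Dst at percentile 90.4, Itga3 at 89.8 and Itga6 at 84.3. Col17a1 was at 76.9, while its spread within groups was only at percentile 37.2. Lamb3 was at percentile 5.0 and Cd151 at 10.5, so that a chain of the ligand and a receptor partner were among the steadier genes of these organoids. Lama3 (77.4), Plec (71.9) and Itgb4 (70.6) lay between. For Itgb4 the spread within groups was at percentile 84.0, higher than that over all libraries.

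Across the 24 libraries, which include the treatment, passage and day differences, Itga6, Col17a1 and Dst followed each other. Pearson's r of log2 CPM was 0.91 for Itga6 and Col17a1, 0.81 for Itga6 and Dst and 0.82 for Col17a1 and Dst. For Itga6 and its own partner Itgb4 it was 0.23. Over all 36 pairs of members r ran from −0.62, for Col17a1 and Cd151, to 0.91, with a median of 0.26. In deviations from the group means, which take these differences out, the median was 0.58, Dst and Plec reached 0.87, Itgb4 and Plec 0.85, and Itga6 and Itgb4 0.61. These are descriptions over libraries that share depth and scaling. By the same measure the genes most like Itga6 were Slc27a3 (r = 0.92), Rps20 and Top2b (0.90 each), those most like Col17a1 Sfrp1 (0.92), Stim1 (0.91) and Slc7a1 (0.90), and those most like Dst Rplp2 (0.91), the desmosomal plakin gene Dsp (0.87) and Pcdh7 (0.87). Closest to Itgb4 were Kcnn4, Incenp and Cadm1 (0.85 to 0.87), to Plec Mbnl3, Myo5a and Erc1 (0.83 to 0.84), and to Itga3 Isyna1, Rfwd3 and Iffo2 (0.87 to 0.88). For Lama3 they were Txnrd3, Bcl10 and Nrde2 (0.80 to 0.81), for Lamb3 Puf60, Lfng and Dnm2 (0.76 to 0.81), and for Cd151 Edn1, Zdhhc2 and Dkk3 (0.76 to 0.77).

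**Figure D4:**
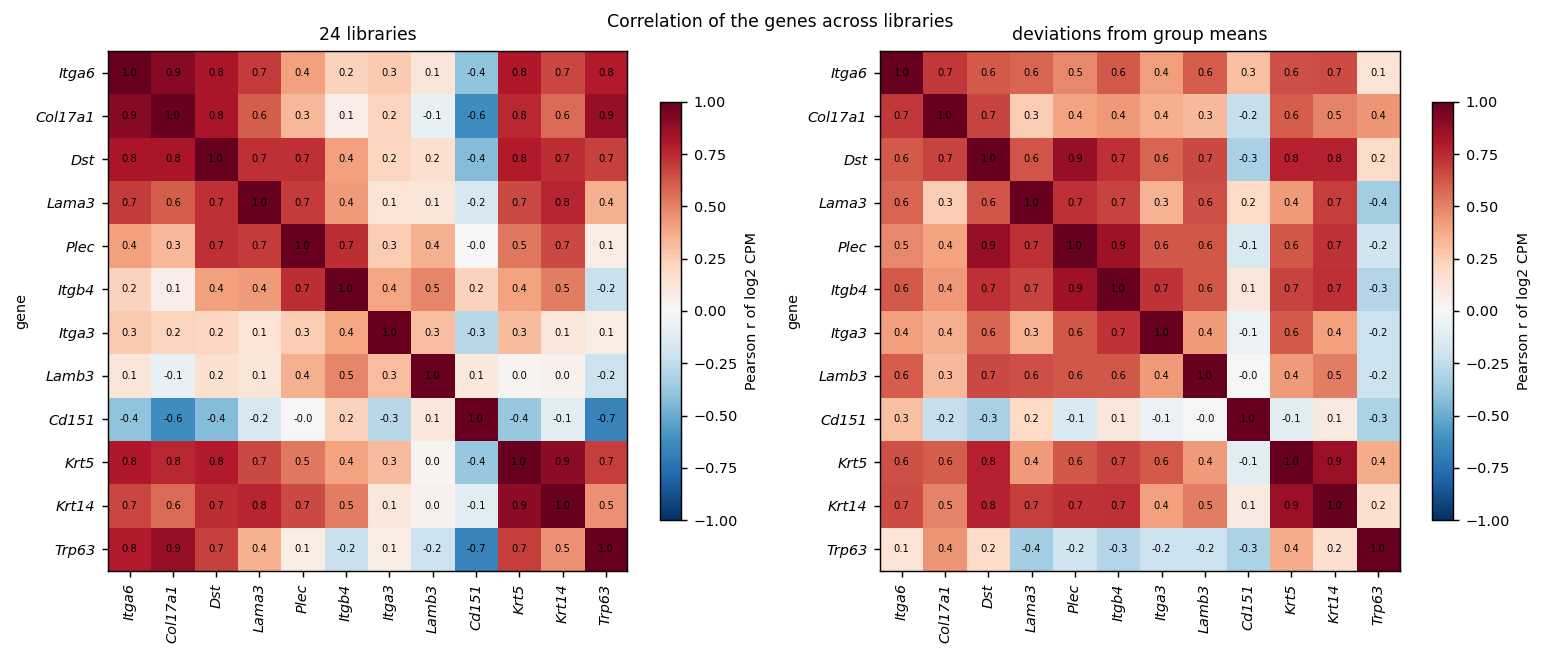
Pearson's r of log2 CPM between the members and Krt5, Krt14 and Trp63, over 24 libraries (left) and for deviations from the 8 group means (right); red is positive, blue negative, and both axes list the genes. On the left Itga6, Col17a1 and Dst form a block with Krt5 and Trp63, and on the right Itgb4, Plec and Dst are the tighter group.

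Several genes of the basal cells that carry hemidesmosomes were lower in IR as well. Of 7 basal duct genes 4 were lower in the mean irradiation effect and 0 higher, against 4.91% and 6.09% of all genes: Trp63, the transcription factor p63 of basal epithelia (−0.98, SE 0.13, adjusted p = 0.000114), the keratins Krt15 (−2.02, SE 0.39) and Krt5 (−0.78, SE 0.22), and Pdpn (−0.57, SE 0.17). Krt14, the partner of Krt5, had −0.50 (SE 0.17, adjusted p = 0.0560), Krt17 −0.25 (adjusted p = 0.270) and Cdh3, the basal cadherin, 0.08 (adjusted p = 0.812). Trp63 lay below every sham library of the stratum in 11 of 12 IR libraries, and its r with Col17a1 over the 24 libraries was 0.87. That r includes the treatment and passage differences. In deviations from the group means it was 0.44 for Col17a1, 0.19 for Dst and 0.14 for Itga6. For the other members it was negative, from −0.35 for Lama3 to −0.20 for Plec. The summed level of 6 basal markers did not fall in every stratum. It was 3984 to 5590 CPM in sham and 4999 to 6997 CPM in IR at day 14 passage 1, and 8327 to 9576 against 5008 to 6381 CPM at day 14 passage 2. At day 90 it was 4494 to 8182 against 2051 to 4378 CPM in passage 1, and 4769 to 8061 against 1628 to 5235 CPM in passage 2. At day 14 passage 1, where the sum was higher in IR, its markers did not move together. Mean Krt14 was 2880 CPM in sham and 3723 CPM in IR, and mean Krt5 1355 and 1362 CPM. Mean Trp63 was 85.7 CPM in sham and 42.2 CPM in IR. The part of basal cell number in the irradiation effect was not tested.

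Most luminal genes of the list were higher. Of 8 luminal duct genes 6 were higher after irradiation and 0 lower, among them the simple epithelial keratins Krt8 (1.12, SE 0.10, adjusted p = 1.99e-06), Krt18 (0.95, SE 0.11) and Krt7 (0.98, SE 0.14). The other 2 of the 8 had negative or near-zero values and were not called: Krt19, a keratin of duct cells, had −1.33 (SE 0.45, adjusted p = 0.0574), from 12.6 to 5.71 CPM, and Ehf −0.01 (adjusted p = 0.967). The 4 luminal markers summed to 1036 to 1181 CPM in sham and 1169 to 1584 CPM in IR at day 14 passage 1, and to 323 to 386 against 832 to 1271 CPM at day 90 passage 2. Their sum was 275 to 326 against 356 to 743 CPM at day 14 passage 2, and 759 to 1024 against 1584 to 1917 CPM at day 90 passage 1. Myoepithelial markers, few reads in all, summed to 24.4 to 36.5 CPM in sham and 4.33 to 8.91 CPM in IR at day 14 passage 1, to 14.2 to 17.7 against 1.99 to 9.78 CPM at day 14 passage 2, to 6.77 to 12.7 against 4.63 to 5.67 CPM at day 90 passage 1, and to 5.63 to 9.12 against 3.34 to 14.2 CPM at day 90 passage 2. Their part in the irradiation effect was not tested. In the mean passage effect 5.24% of all genes were higher in passage 2 and 6.43% lower. Of the 7 basal genes 2 were higher and 0 lower, among them Trp63 (0.64, SE 0.13, adjusted p = 0.00214). Krt5 (0.47, adjusted p = 0.165) and Krt14 (0.05, adjusted p = 0.890) were not called. Of the 8 luminal genes 5 were lower and 0 higher, among them Krt8 (−1.35, SE 0.10, adjusted p = 3.17e-08). Col17a1 was higher in passage 2.

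Among other genes of the adhesion machinery few were called, in both directions. The counts that follow stand against 6.09% of all genes higher and 4.91% lower, and several are near these shares. A further list held 16 genes of hemidesmosomes, integrins, tetraspanins and related adhesion, not all of them hemidesmosome or laminin receptor genes. Of these 2 were lower in the mean irradiation effect: Bcam, a laminin receptor of the immunoglobulin family (−0.79, SE 0.16, adjusted p = 0.00324), and Krt5. Krt5 also counts among the basal genes above. The 2 that were higher were Tspan1, a tetraspanin (1.03, SE 0.18, adjusted p = 0.00116), and Itgb6, a partner of the alpha v integrin (0.65, SE 0.19, adjusted p = 0.0287). Itgb1, the common beta subunit, had 0.02 (SE 0.072, adjusted p = 0.879), and Col7a1, the anchoring fibril collagen below the hemidesmosome, −0.61 (SE 0.22, adjusted p = 0.0796). Of 6 tested laminin chains outside the 9 genes 1 was higher, Lama5, another alpha chain of epithelial basement membranes (0.33, SE 0.088, adjusted p = 0.0183). Of 11 tested basement membrane genes 2 were higher and 0 lower: Npnt, nephronectin, from 10.2 to 41.7 CPM (2.25, SE 0.29, adjusted p = 0.000114), and Nid1, nidogen (1.01, SE 0.31, adjusted p = 0.0364). Of 10 tested genes of laminin processing and ectodomain shedding 1 was higher, the metalloproteinase inhibitor gene Timp3 (0.39, SE 0.12, adjusted p = 0.0301), and Adam9, Adam10 and Adam17, known as collagen XVII sheddases, were not called (0.33, 0.05 and −0.15). Of 16 focal adhesion genes 2 were higher, Actn1 (0.37, SE 0.097, adjusted p = 0.0168) and Vcl (0.27, SE 0.084, adjusted p = 0.0418). In the single stratum with most calls, day 90 passage 2, the listed genes called were Tspan1 (1.62), Npnt (2.52), the collagen IV chain gene Col4a4 (2.54), Timp3 (1.16), and the focal adhesion genes Parva (0.72), Ilk (0.64) and Actn1 (0.67), all higher in IR. Across passage, where 5.24% of all genes were higher and 6.43% lower, 3 of the 16 genes of that further list were lower in passage 2 and 0 higher. They were Tspan1 (−1.52, SE 0.18, adjusted p = 1.54e-05), Lad1, the anchoring filament protein ladinin (−0.50, SE 0.087), and Itgb6 (−0.89, SE 0.19). Of the laminin chains Lama4 was higher (0.97, SE 0.27) and Lamc1 lower (−0.41, SE 0.13, adjusted p = 0.0413), and of the basement membrane genes Npnt (−2.21, SE 0.29) and Col4a4 (−2.28, SE 0.36) were lower. The passage call of Lamc1 held in 13 of 34 alternatives (adjusted p up to 0.321), those of Lama4 and Itgb6 in 33, and those of Tspan1, Lad1, Npnt and Col4a4 in all 34. Several of the irradiation calls were lost when single libraries were left out or other settings used: those of Timp3, Itgb6, Pdpn, Nid1 and Vcl held in 26, 25, 20, 18 and 17 of 38 alternatives. Those of Trp63, Bcam, Tspan1, Npnt, Krt7, Krt8 and Krt18 held in all 38, Krt15 in 37, Krt5 in 35, Lama5 in 34 and Actn1 in 33.

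Interferon response genes varied strongly between libraries and with irradiation, and 2 members moved against them within groups. Of 23 tested interferon genes 15 were lower in IR in the mean effect (median log2 fold change −1.92), and 20 were higher in passage 2. Their mean log2 CPM ran from 1.48 to 5.93 over the libraries. At day 14 passage 2 it was 1.48, 5.68 and 5.49 in sham and 1.86, 2.34 and 5.51 in IR, so that sham replicate 1 lay with IR replicates 1 and 2, and IR replicate 3 with the other sham libraries. In passage 1, sham replicate 2 was above the other sham libraries, at 5.45 against 2.82 and 2.41 at day 14 and at 4.72 against 1.89 and 3.06 at day 90. Within groups, Itgb4 was lower by 0.20 on the log2 scale for each unit of that mean (SE 0.043, adjusted p = 0.00616) and Plec by 0.17 (SE 0.046, adjusted p = 0.0322). The 2 were called among the 9 members, against 2.12% of all genes with a negative slope and 2.79% with a positive one. The slopes of Itga6 (−0.02, SE 0.049) and Col17a1 (−0.03, SE 0.036) were not called. Dst (−0.16, SE 0.056, adjusted p = 0.0990) and Itga3 (−0.17, SE 0.072, adjusted p = 0.212) had slopes near that of Plec, also not called. With this mean as a covariate the irradiation effect was −0.59 for Itga6, −0.48 for Col17a1 and −0.82 for Dst, all 3 still called, and that of Itgb4 turned from 0.06 to −0.22 (adjusted p = 0.233) and that of Plec from −0.12 to −0.37 (adjusted p = 0.0679). With the log2 share of Gm42418 as a covariate, whose slope was called for 0 of 9 members and 2 genes in all (0.0189%), the 3 calls held as well. They also held without sham replicate 1 and IR replicate 3 of day 14 passage 2, and in all 24 fits that left out 1 library. Whether the interferon level has a part in the irradiation effect was not tested beyond these fits.

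**Figure D5:**
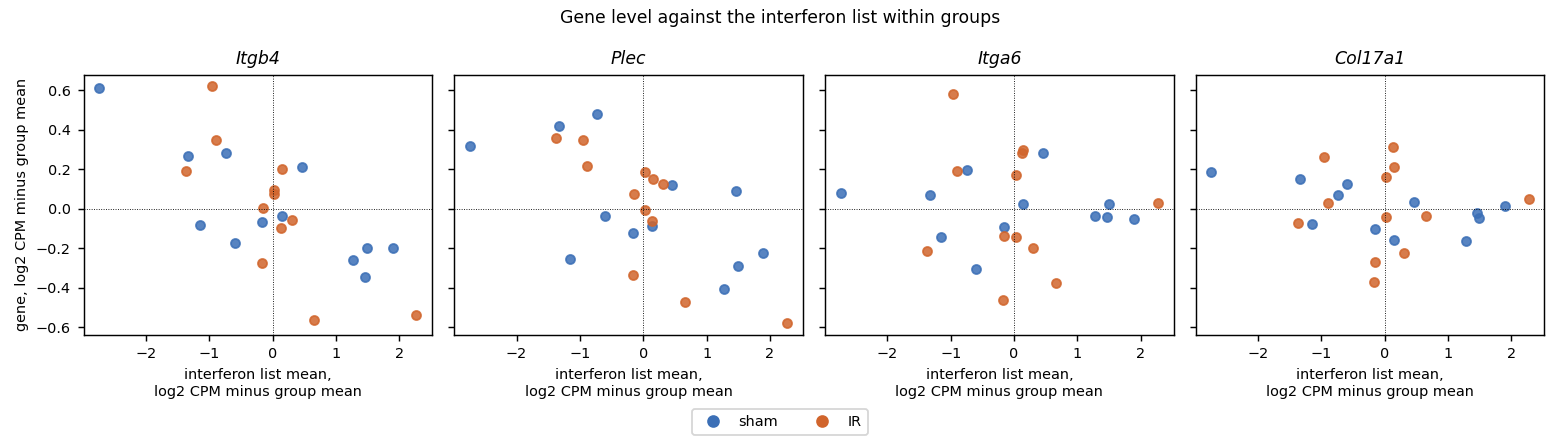
Log2 CPM of Itgb4, Plec, Itga6 and Col17a1 (vertical axes) against the mean log2 CPM of 23 interferon genes (horizontal axes), both as differences from the mean of the library's group, for 24 libraries, sham in blue and IR in orange. Itgb4 and Plec slope downwards, by 0.20 and 0.17 per unit, while Itga6 and Col17a1 show no called slope. Dst, not plotted, had a slope of −0.16 that was not called.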

How the data were processed

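Organoid RNA was measured in 24 libraries with QuantSeq 3′ mRNA sequencing, per the labels' protocols. The authors deposited raw counts per Ensembl gene for 47643 genes, with 5 closing lines that name no gene and were left out. The closing line of reads on no feature held 11.5% to 26.5% of all counts, closing lines included. The submitters' processing notes name bcl2fastq and GRCm39; the aligner, counter, annotation and strand setting were not given in the sources used here. Symbols came from a GENCODE table of another build, used for names only, and matched 47224 IDs.

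From the deposited counts, edgeR 4.0.16 (R 4.3.3, limma 3.58.1) was run with TMM scaling, its expression filter (10563 genes), one mean per group over all 24 libraries and the quasi-likelihood test, with Benjamini-Hochberg adjustment over all tested genes and a threshold of 0.05. CPM were computed here. The mean irradiation effect averages the 4 strata. Of 19 comparisons, the mean passage and mean day effects were added after values were seen, as were the library ratios, which get no test; 1 ratio computed is not reported here. SE is the log2 fold change divided by the square root of F, and intervals are 1.96 SE. Alternatives were DESeq2 1.42.0, other scalings, no filter or 5 CPM in 3 libraries, ribosomal RNA genes left out, covariates, the compared groups alone, the replicate block, strata left out and each library left out. The members and gene lists were chosen with earlier results of these data known. Named were all members, Krt5, Krt14 and Trp63, up to 3 called genes of smallest p per list and comparison, and the 3 genes most like each member by Pearson's r among tested genes, predicted genes left out. Pdpn, Krt17, Cdh3, Krt19, Ehf, Itgb1, Col7a1 and the Adam genes were named after their values were seen. No 2 libraries of a group agreed within sampling noise (chi-square per degree of freedom 2.07 or more). The fits were tested on simulated counts.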

Additional observations from a re-analysis of the deposited data

How the results depend on the processing

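The mean irradiation effect on the members kept its 3 calls in 37 of 38 alternatives, with adjusted p in edgeR or DESeq2 up to 0.0304 for Itga6 and 0.0329 for Col17a1; leaving out day 90 passage 1 left 2 (Dst lost, adjusted p = 0.0794). No called member value changed sign. Of 5812 member values under alternatives that were not called at first, 268 changed sign and 25 became called.

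Without the filter on low counts, 1 member was called for irradiation at day 14 passage 1 (Dst), 2 at day 90 passage 1 (Itga6, Dst), 1 at day 90 passage 2 (Itga6), 1 for day in IR passage 2 (Itga3), 3 in the mean day effect (Itga3, Lama3, Dst) and 3 in the mean passage effect (Itga3 besides Itga6 and Col17a1). DESeq2 called 1 for irradiation at day 90 passage 2, 1 for passage in IR at day 14 (both Col17a1) and 1 in the mean day effect (Dst). With total gene counts 2 were called in the mean day effect (Itga3, Lamb3), and with the replicate block 1 (Dst). The mean passage effect kept 1, Col17a1, with the Gm42418 share or the interferon mean as a covariate and without the 2 libraries of day 14 passage 2 that stood apart. The cause was not tested.

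Leaving out 1 library at a time, called members numbered 3 to 3 in the mean irradiation effect, 1 to 2 for passage, 0 to 2 for day, 0 to 2 for irradiation at day 90 passage 2 (2 without its IR replicate 1), 0 to 1 for passage in IR at day 14 (1 without replicate 3 of passage 1) and 0 to 0 in the other 14 comparisons. The mean day effect called 2 without sham replicate 1 of day 90 passage 1 or without IR replicate 1 of day 90 passage 2, and 1 without sham replicate 3 of day 14 passage 1, IR replicate 3 of day 14 passage 2 or sham replicate 1 of day 90 passage 2. The ratios ran from −0.70 to −0.58 (Itga6 to Itgb4), −0.56 to −0.45 (Col17a1 to Itgb4), −0.50 to −0.43 (Dst to Plec), −0.25 to −0.083 (Itga3 to Itgb1) and −0.25 to −0.16 (Lama3 to Lamb3).

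Counts over all genes moved more. The mean irradiation effect had 1162 calls, 268 without day 90 passage 2, 1642 without a filter, and 846 to 1774 leaving out 1 library, the highest without IR replicate 1 of day 90 passage 2. The mean passage effect had 1232 (521 to 1760) and the mean day effect 508 (238 to 1410). Single irradiation comparisons had 36 (4 to 460), 2 (0 to 200), 5 (0 to 465) and 520 (85 to 1044) in the order of the strata. Whether replicate numbers pair the libraries was not settled. In deviations from group means, same-numbered libraries of compared groups correlated between −0.18 and 0.39. The correlation was over 0.1 in 13 of 24 pairs, and in all 3 pairs for 0 of 8 comparisons. For day 90 IR the deposit also holds replicate numbers that differ from those of the labels, which were used. The replicate block changed no member call except Dst in the mean day effect.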
